A study of Mus musculus with 32 samples.

Results

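Transcripts that mark cells other than neurons were examined in mouse prefrontal cortex, as a check of what tissue the samples held. The genes were Glul and Dio2, which mark astrocytes, Ttr, which marks the choroid plexus, Hba-a1, which marks red blood cells, and Fgg, which encodes a clotting protein of blood plasma. Members were the array spots whose title named one of these 5 genes, leaving out titles that began with EST (expressed sequence tag, a single read of a cDNA clone). There were 6 such spots, among 4696 gene spots of which 1161 carried a title. Hba-a1 had 2 spots, made from the clones AI426025 and AI448719, and each of the other genes had 1.

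Astrocytes take up glutamate released at synapses, and glutamine synthetase (Glul) turns it into glutamine, which neurons use again. Type II deiodinase (Dio2) in astrocytes converts the prohormone thyroxine into active thyroid hormone. Transthyretin (Ttr) carries thyroxine and is the leading secreted product of the choroid plexus, the epithelium of the ventricles, so its transcript in a cortical sample is widely read as a sign of ventricular tissue. Alpha globin (Hba-a1) is a chain of hemoglobin and is abundant in red blood cells, which stay in vessels unless the brain is perfused. Gamma fibrinogen (Fgg) is made mainly by the liver and secreted into plasma.

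The samples came from mice bred for severe (Withdrawal-Seizure Prone, WSP) or mild (Withdrawal-Seizure Resistant, WSR) seizures on withdrawal from ethanol. Each direction was selected in 2 separately bred lines from a genetically mixed stock, called WSP-1, WSP-2, WSR-1 and WSR-2. Drug-naive adult females and males were injected with ethanol (1.5 g/kg, and a higher dose in WSP-2 only) and then kept in ethanol vapor for 72 hours, while controls stayed in air chambers. Pyrazole, which blocks alcohol dehydrogenase, was given to every group at 68.1 mg/kg, controls included. Tissue was taken after 21 days of abstinence. The 8 groups of sex, line and treatment (Female WSP Air, Female WSP EtOH and so on) held 4 arrays each, 2 from each breeding line. Each array carried RNA pooled from 2 mice, so p-values measure the spread between pools. In tissue samples of this kind, fewer cells of a type and less RNA per cell cannot be told apart.

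Array brightness differed by line and sex, and in Female WSR also by treatment. The number of gene spots at 2 times the array's background or more was 1682 to 2040 on the 8 Male WSR arrays and 518 to 604 on the 8 Male WSP arrays, with 588 to 1428 in Female WSP and 783 to 1095 in Female WSR. Within Female WSR it was 783 to 922 in air and 940 to 1095 after ethanol, with no overlap. One array, replicate 1 of Female WSP EtOH, had 588 such spots and the lowest background, and its Dio2, Ttr and brighter Hba-a1 spots were the dimmest among the female arrays. The p-values below come from limma with Benjamini-Hochberg adjustment over the 2084 spots at 2 times background on at least 4 arrays, and a call is an adjusted p under 0.05. Precision is limited by the number of arrays.

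The members fell into bright and dim spots. Glul, Dio2, Ttr and the Hba-a1 spot of clone AI426025 lay above 2 times background on all 32 arrays. Among the 4696 gene spots of an array, ranked from the brightest, the median rank was 146 for this Hba-a1 spot, 206 for Ttr, 360.5 for Glul and 443 for Dio2. Fgg had a median rank of 1336.5 and reached 2 times background on 6 arrays. The Hba-a1 spot of clone AI448719 had a median rank of 2894.5 and reached 2 times background on 0 of 32 arrays, so it was not tested, which left 5 member spots in the tests.

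The gene loci are known from RefSeq on build GRCm38.p6. Glul lies on chromosome 1 at 153899929 to 153909723, Dio2 on chromosome 12 at 90724552 to 90739038, Hba-a1 on chromosome 11 at 32283672 to 32284486 and Fgg on chromosome 3 at 83007724 to 83015056. The 6 clone accessions matched 0 entries of the RefSeq table, so a spot stands for its title alone and its place within a gene, exon or UTR is not given. Alpha globin also has a near-identical paralog, Hba-a2, whose transcript this spot cannot tell from Hba-a1.

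**Figure D1:**
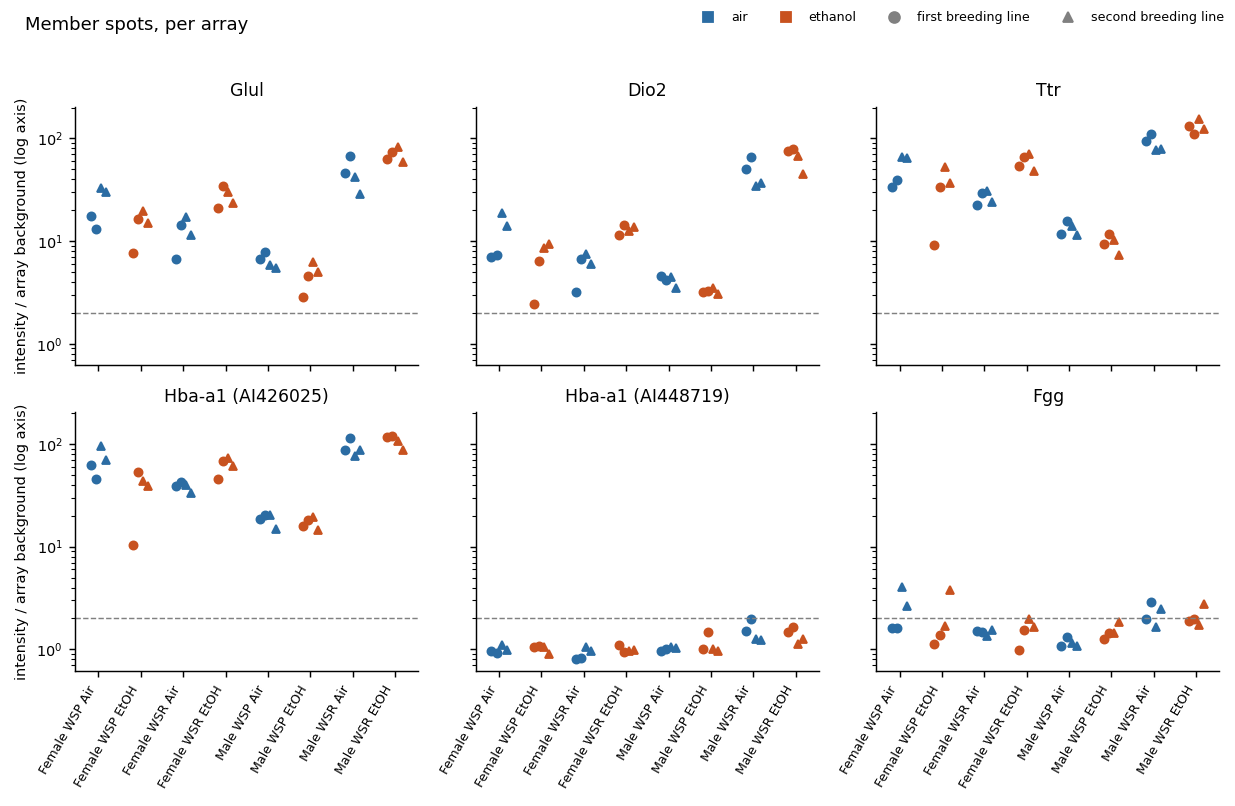
Spot intensity divided by the array's background (log axis) for the 6 member spots on each of the 32 arrays, by group, with colour for treatment and shape for breeding line; the dashed line marks 2 times background. The 4 bright spots are lowest in the Male WSP groups and highest in the Male WSR groups by group mean, and the spot of clone AI448719 stays under the line on every array.

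The 2 Hba-a1 spots disagreed in level. Over 32 arrays, the lowest, median and highest ratio to background were 10.4, 45.7 and 119 for clone AI426025, and 0.80, 1.04 and 1.96 for clone AI448719. Both clones were assigned to the same UniGene cluster and carried the same title. The spots of other red cell genes were divided in the same way. The spot for ferrochelatase (Fech), which inserts iron into protoporphyrin to form heme in all heme-making cells, was at 2 times background on all 32 arrays. The spot for the beta globin partner chain Hbb-b2 reached that level on 0 arrays, with a highest ratio of 1.48. A further spot, titled hemoglobin beta chain complex, reached it on 9 arrays, 8 of them Male WSR. Erythroid ankyrin (Ank1), which anchors the red cell's membrane skeleton, reached it on 2 arrays. Thus of the 6 red cell spots described here, 2 were bright on every array and 2 were at 2 times background on none.

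The astrocyte spots were as uneven. Glul had ratios of 2.88, 17.4 and 83.0 (lowest, median and highest) and Dio2 had 2.42, 8.04 and 79.8. The other astrocyte spots were dim. Ndrg2, a protein abundant in mature astrocytes, reached 2 times background on 14 arrays, including all 8 of Male WSR. Aldolase C (Aldoc), a glycolytic enzyme of astrocytes, did so on 2 arrays, the growth factor receptor Fgfr3 on 1, and vimentin (Vim) and clusterin (Clu) on 0. The mitochondrial transaminase Got2, which handles glutamate, was also at 2 times background on 0 arrays.

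Ttr had ratios of 7.27, 38.1 and 156 over the 32 arrays. The other choroid plexus spots did not share this brightness. The folate receptor Folr1, which takes folate across the choroid plexus, reached 2 times background on 1 array, and Igf2, a growth factor made there, on 0. Ttr was thus the only 1 of the 3 choroid plexus spots with a level on most arrays.

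Fgg had ratios of 0.99, 1.61 and 4.07. The 6 arrays above 2 times background were 3 from Female WSP and 3 from Male WSR, so Fgg met the filter of 4 arrays only with both sets counted. Coagulation factor VII (F7), another liver-made clotting protein, reached the level on 9 arrays, none of them Male WSR. Protein C (Proc), which limits clotting, did so on 3 arrays, all Male WSR. Complement C3 and the heme carrier hemopexin (Hpx) did so on 0 arrays. A spot titled only as an EST similar to fibrinogen beta, the partner chain of Fgg, reached it on 2 arrays.

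**Figure D2:**
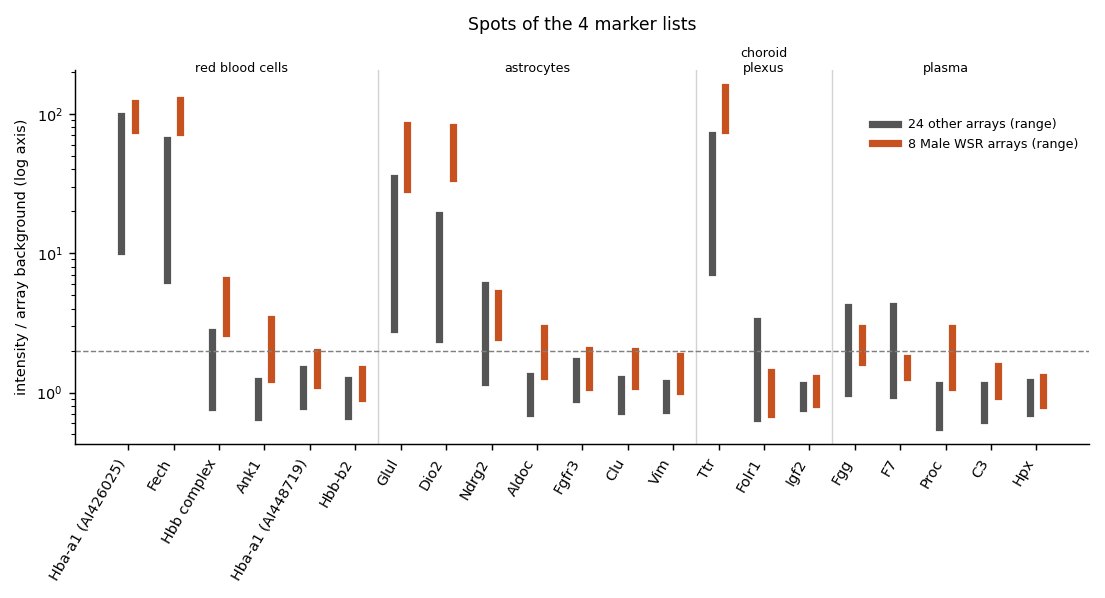
Range of intensity over background (log axis) for the reported spots of the red cell, astrocyte, choroid plexus and plasma lists. Ranges are drawn separately for the 8 Male WSR arrays and the 24 other arrays, and the dashed line marks 2 times background. Only Glul, Dio2, Ttr, the Hba-a1 spot of clone AI426025 and Fech stay above the line on all arrays.

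Neuronal spots, which should be present in cortex, were at 2 times background on some arrays only. The NMDA receptor subunit Grin1 reached 2 times background on the 8 Male WSR arrays and no others, synapsin I (Syn1) on 11, the postsynaptic scaffold Dlg4 on 18 and the interneuron peptide somatostatin (Sst) on 12. All 4 were tested. The spots for microglia, the brain's immune cells (Cd14 and Fcer1g), had 0 of 2 tested. The endothelial receptor endoglin (Eng) reached the level on 11 arrays. The summed ratio to background of the 4 neuronal spots was 13.97 to 24.9 in Male WSR and 4.60 to 5.33 in Male WSP, and that of the 7 astrocyte spots was 74.7 to 164 and 11.6 to 17.7. For the 6 red cell spots these ranges were 162 to 251 and 25.8 to 34.4, for the 3 choroid plexus spots 78.9 to 158.3 and 9.35 to 17.6, and for the 5 plasma spots 6.07 to 10.2 and 5.05 to 5.96. Neuronal, astrocyte, red cell, choroid plexus and plasma lists were all higher in Male WSR by this unnormalized measure, with no overlap with Male WSP. Bright spots made up most of the astrocyte sum (Glul and Dio2), the red cell sum (Hba-a1 and Fech) and the choroid plexus sum (Ttr). In Male WSR, Ttr alone was 76.6 to 156, with Folr1 at 0.71 to 1.41 and Igf2 at 0.82 to 1.28. These 3 sums are therefore not separate from the members.

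Before normalization the order of the groups was nearly shared by the bright members. Male WSR EtOH and Male WSR Air stood first and second for Glul, Dio2, Ttr and Hba-a1, and Male WSP Air and Male WSP EtOH stood last. For Glul the mean ratio to background was 69.6 ± 10.7 (SD, n = 4) in Male WSR EtOH, 46.2 ± 16.4 in Male WSR Air, 6.45 ± 1.01 in Male WSP Air and 4.66 ± 1.39 in Male WSP EtOH. For Ttr the same groups had 131 ± 19.4, 90.0 ± 16.1, 13.1 ± 2.00 and 9.64 ± 1.82. Female groups lay between them, and Fgg did not follow this order, with Female WSP Air first at 2.48 ± 1.17 and Male WSP Air last at 1.15 ± 0.11. The mean count of bright spots on an array was also highest in the 2 Male WSR groups and lowest in the 2 Male WSP groups, and its part in the members' levels was not tested.

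After quantile normalization, which gives all arrays the same distribution of values, the group means lay close together. For Glul they ran from 8.23 ± 0.23 (SD, n = 4, normalized log2 intensity) in Female WSP EtOH down to 7.70 ± 0.35 in Male WSR Air. Dio2 ran from 7.93 ± 0.31 in Male WSR EtOH to 7.31 ± 0.18 in Female WSR Air. Ttr ran from 9.28 ± 0.32 in Male WSR EtOH to 8.78 ± 0.16 in Male WSP EtOH. These 3 genes thus spanned under 1 log2 unit between the highest and the lowest group. Hba-a1 (AI426025) ran from 9.43 ± 0.052 in Male WSP EtOH to 8.95 ± 0.11 in Male WSR EtOH, and Fgg from 6.55 ± 0.38 in Male WSP EtOH to 5.86 ± 0.043 in Male WSR EtOH. Most neighbours in these orders differed by less than their SDs. The gap was larger than both SDs at 1 step for Dio2, between Male WSP EtOH (7.62 ± 0.058) and Female WSR EtOH (7.54 ± 0.050), and at 1 step for Hba-a1, between Female WSR Air (9.32 ± 0.15) and Female WSR EtOH (9.14 ± 0.16). At no step did Glul, Ttr or Fgg have such a gap.

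**Figure D3:**
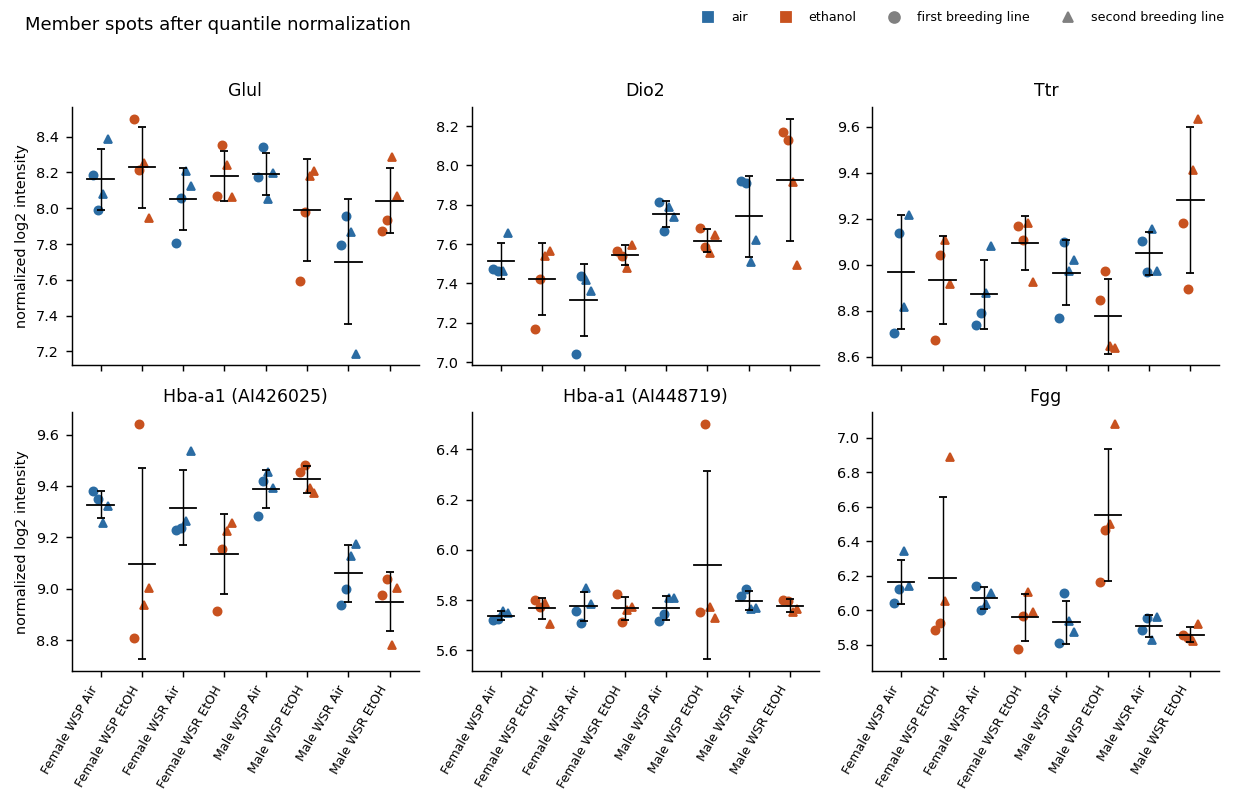
Normalized log2 intensity of the 6 member spots on each array, by group, with the mean (line) and SD (bar) of 4 arrays; colour gives treatment and shape the breeding line. On this scale Hba-a1 (AI426025) lies lower in the 2 Male WSR groups than in the 2 Male WSP groups with no overlap, the reverse of its ratio to background, and Fgg is highest in Male WSP EtOH.

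The design compared ethanol with air within each sex and line. No member spot was called in any of the 4 groups by limma, where the share of all tested spots called was 0.384% in Female WSP and 0.048% in Female WSR. It was 0.048% for the males of WSP and 0% for those of WSR. At an unadjusted p under 0.05 the counts of member spots were 0, 0, 1 and 1. Among all 2084 tested spots the same counts ran from 64 in Male WSR to 270 in Female WSR, with Female WSP and Male WSP between them. A mean over all 4 groups gave 0 calls among members (0% of all tested spots) and 0 at an unadjusted p under 0.05 (98 of the 2084 tested spots).

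Fgg had the smallest p among the members, in Male WSP. Its normalized log2 intensity was 6.16, 6.46, 6.50 and 7.08 after ethanol and 5.81, 6.10, 5.94 and 5.87 in air. All ethanol arrays lay above all air arrays on this scale, and the fitted log2 difference was 0.62 ± 0.15 (SE, unadjusted p = 0.000346, limma adjusted p = 0.106, with 4 of 4 ethanol arrays higher than the mean in air). The ratio to background was 1.25, 1.44, 1.46 and 1.86 after ethanol and 1.07, 1.30, 1.14 and 1.08 in air. On that scale the groups overlapped and all 8 arrays were under 2 times background, so no fold is given. In the other 3 groups the Fgg difference was -0.11 ± 0.15 in Female WSR, -0.047 ± 0.15 in Male WSR and 0.025 ± 0.15 in Female WSP. The last of these rested on replicate 4 after ethanol, at 6.89 against 5.89, 5.92 and 6.05.

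Glul had an unadjusted p under 0.05 in Male WSR. It measured 7.87, 7.94, 8.29 and 8.07 after ethanol and 7.80, 7.96, 7.87 and 7.19 in air. The groups overlapped, and air replicate 4 was the lowest of all 32 arrays for this gene. The difference was 0.34 ± 0.15 (SE, unadjusted p = 0.033, adjusted p = 1 by limma, with 4 of 4 ethanol arrays higher than the mean in air), and it was 0.16 without replicate 4. For females of WSP it was 0.066 ± 0.15, and its sign turned there to -0.63 under median scaling and -0.044 under cyclic loess. In the remaining groups it was 0.13 ± 0.15 (Female WSR) and -0.20 ± 0.15 (Male WSP).

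Dio2 and Ttr gave small differences in all groups. In Female WSR, Dio2 measured 7.56, 7.54, 7.48 and 7.60 after ethanol and 7.04, 7.44, 7.42 and 7.36 in air. These groups did not overlap, yet the difference of 0.23 ± 0.13 had an adjusted p of 0.432 by limma. Array brightness did not overlap between them either, and its part was not tested. Dio2 differed by -0.093 ± 0.13 in Female WSP, -0.13 ± 0.13 in Male WSP and 0.19 ± 0.13 in Male WSR. Ttr differed by 0.22 ± 0.14 in Female WSR, 0.23 ± 0.14 in Male WSR, -0.034 ± 0.14 in Female WSP and -0.19 ± 0.14 in Male WSP. The 95% intervals of all 8 differences of these genes held 0.

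Hba-a1 (AI426025) had negative values in 3 of 4 groups, none of them called. Its difference between ethanol and air was -0.11 ± 0.12 in Male WSR, -0.18 ± 0.12 in Female WSR, -0.23 ± 0.12 in Female WSP and 0.037 ± 0.12 in Male WSP. Under median scaling the sign turned in Female WSR (0.31), Male WSP (-0.14) and Male WSR (0.22), and Female WSP was called at -1.08 (adjusted p = 0.0206), where 7.1% of all tested spots were called. The Female WSP value came from 3 ethanol arrays at 8.81, 8.94 and 9.00 and another at 9.64, against 9.26 to 9.38 in air. Over all 4 groups the Hba-a1 difference was -0.12 ± 0.062 (SE, unadjusted p = 0.0604, adjusted p = 0.857 by limma, with 5 of 16 ethanol arrays higher than the mean in air).

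The ethanol response was also compared between lines and between sexes. For WSP minus WSR of the ethanol difference, 0 of 5 member spots were called against 0.24% of all tested spots. An unadjusted p under 0.05 was found for 3 members, against 262 of the 2084 tested spots. The higher dose was given in WSP-2 only, so line and dose cannot be fully told apart in this comparison. Dio2 had -0.32 ± 0.13 (SE, adjusted p = 0.25 by limma), Ttr -0.34 ± 0.14 (adjusted p = 0.273) and Fgg 0.40 ± 0.15 (adjusted p = 0.239). Glul had -0.30 ± 0.15 (adjusted p = 0.404) and Hba-a1 0.049 ± 0.12. The median over all tested spots was -0.032, with quartiles of -0.12 and 0.058. Under median scaling 4 of the 5 were called, at -1.14 for Glul, -0.96 for Dio2, -1.23 for Ttr and -0.88 for Hba-a1, where 27.4% of all tested spots were called and their median was -0.20. The sex difference of the ethanol response gave 0 calls (0% of all tested spots). There 1 member, Fgg (0.33 ± 0.15), had an unadjusted p under 0.05, against 122 of the 2084 tested spots.

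**Figure D4:**
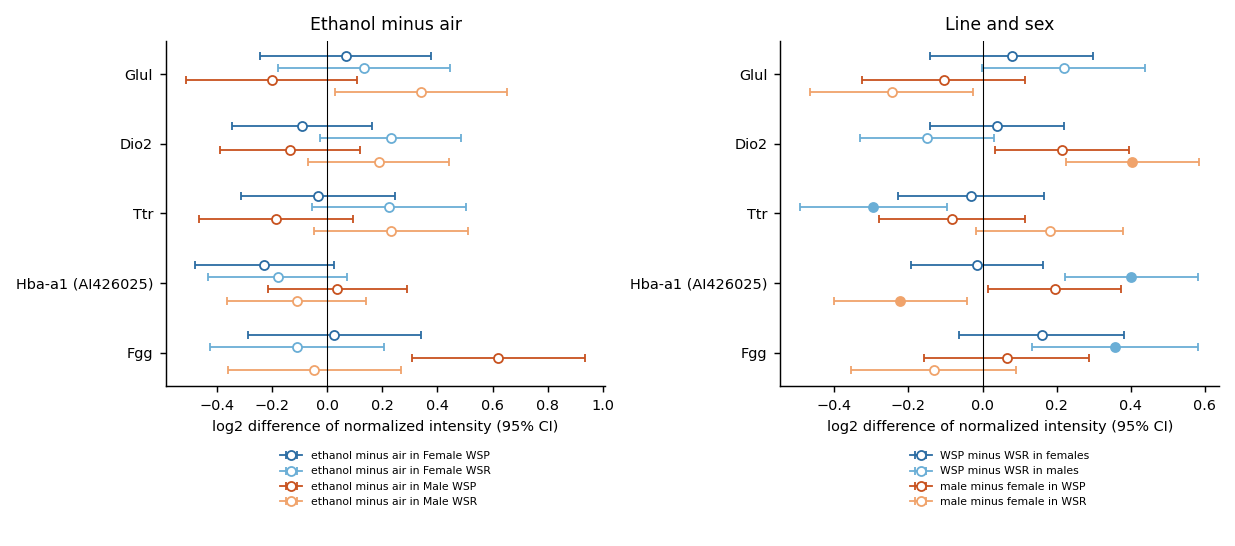
Fitted log2 differences with 95% confidence intervals for the 5 tested member spots, between ethanol and air in the 4 groups (left) and between lines and sexes (right); filled points passed an adjusted p under 0.05. No point on the left is filled, and on the right the filled points belong to Ttr, Hba-a1 and Fgg between the lines in males and to Dio2 and Hba-a1 between the sexes in WSR; of these only Dio2 kept its sign in every scaling.

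Between the lines, treatments merged, Hba-a1 (AI426025), Ttr and Fgg were called in males, with directions that in part turned with the scaling. In females 0 of 5 were called, against 12.1% of all tested spots, and 0 had an unadjusted p under 0.05, against 501 of the 2084 tested spots. In males 3 of 5 were called, which was close to the 58.3% called among all tested spots and is no result about the members. Over both sexes 3 of 5 were called, against 54.4%.

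Hba-a1 (AI426025) had the largest of the 5 differences in males after quantile normalization, though not under median scaling. Its normalized log2 intensity was 9.29, 9.42, 9.45 and 9.39 in Male WSP Air and 9.45, 9.48, 9.39 and 9.37 in Male WSP EtOH. It was 8.94, 9.00, 9.13 and 9.18 in Male WSR Air and 8.98, 9.04, 8.78 and 9.00 in Male WSR EtOH. All Male WSP arrays lay above all Male WSR arrays on this scale, with a log2 difference (WSP minus WSR) of 0.40 ± 0.087 (SE, adjusted p = 0.000207 by limma, 8 of 8 WSP arrays above the WSR mean). The ratio to background went the other way, at 14.5 to 20.5 in Male WSP and 76.2 to 119 in Male WSR, again with no overlap. In the same direction as the ratio, median scaling gave -2.06 (adjusted p = 6.91e-11), against a median of -0.69 over all tested spots. For females the difference was -0.014 ± 0.087 (adjusted p = 0.955), and male minus female of the line difference was 0.42 ± 0.12 (adjusted p = 0.00543), the only 1 of the 5 members called there against 53.1% of all tested spots. This difference turned to -1.36 under median scaling (adjusted p = 9.65e-05) and lost its call without replicate 3 (0.35, adjusted p = 0.0735). Over both sexes the line difference was 0.19 ± 0.062 (adjusted p = 0.00915). It turned to -1.38 under median scaling (adjusted p = 2.96e-10) and was not called without replicate 2 (0.14, adjusted p = 0.0762). Fech, the other bright red cell spot, was lower in Male WSP (-0.55 ± 0.11, adjusted p = 5.26e-05), and its sign held in the 4 other settings of scaling and background, at -2.99 under median scaling, though it was not called in the authors' deposited table (-0.11 score units). The hemoglobin beta chain complex spot passed the filter only through the Male WSR arrays, so its line difference is not given. The 2 bright red cell spots therefore went opposite ways in males after quantile normalization, and both were lower in Male WSP under median scaling.

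Ttr was lower in Male WSP than in Male WSR, except in the authors' deposited table, where it was higher. It measured 8.77, 9.10, 8.97 and 9.02 in Male WSP Air and 8.85, 8.97, 8.65 and 8.64 in Male WSP EtOH. It measured 9.10, 8.97, 9.15 and 8.97 in Male WSR Air and 9.18, 8.90, 9.41 and 9.64 in Male WSR EtOH. The lines overlapped, and the highest values were the last 2 of these arrays. The difference was -0.29 ± 0.097 (SE, adjusted p = 0.01 by limma, 0 of 8 WSP arrays above the WSR mean). In that table, the authors' deposited table, each array is scaled by its own spread, and the Ttr difference was 0.75 score units (adjusted p = 0.000184), while median scaling kept the direction at -2.72 and cyclic loess at -0.35. It lost its call without replicate 3 (-0.23, adjusted p = 0.114) and without replicate 4 (-0.23, adjusted p = 0.0636). In females the difference was -0.031 ± 0.097, and over both sexes -0.16 ± 0.068 (adjusted p = 0.0445), a call lost in 6 of the alternatives run, among them the fit without Female WSP EtOH array 1 (-0.14, adjusted p = 0.0782) and those without replicate 1 (-0.12, adjusted p = 0.229), replicate 3 (-0.13, adjusted p = 0.23) and replicate 4 (-0.15, adjusted p = 0.0994). In the authors' deposited table it was called with the opposite sign, at 0.37 score units (adjusted p = 0.00575 by limma).

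Fgg was higher in Male WSP on the quantile-normalized scale and lower by its ratio to background. The fitted difference was 0.36 ± 0.11 (SE, adjusted p = 0.00582 by limma, 6 of 8 WSP arrays above the WSR mean). All 8 Male WSP arrays were under 2 times background and 5 of the 8 Male WSR arrays were as well, so no fold is given. The ratio to background was 1.07 to 1.86 in Male WSP and 1.64 to 2.92 in Male WSR, the reverse order, and median scaling gave -0.071. The call was lost in the authors' deposited table (0.31 score units, adjusted p = 0.246). In females the difference was 0.16 ± 0.11, and over both sexes 0.26 ± 0.077 (adjusted p = 0.00554). The latter turned to -0.0026 under median scaling and was not called in the authors' deposited table (0.28 score units, adjusted p = 0.136). Of the 5 plasma and clotting spots, F7 was the other 1 tested. It reached 2 times background on 7 Female WSP arrays and passed the filter only through them, so its difference over both sexes and in females is not given. In males it had 0.10 ± 0.077 (adjusted p = 0.27), with all 16 male arrays under 2 times background.

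Glul and Dio2 were not called between the lines in the reported fit. In males Glul differed by 0.22 ± 0.11 (adjusted p = 0.083 by limma, 7 of 8 WSP arrays above the WSR mean), and the sign was not stable. Glul was called with the opposite sign under median scaling (-2.54, adjusted p = 2.62e-13) and cyclic loess (-0.32, adjusted p = 0.0173). In the authors' deposited table it had -0.35 score units (adjusted p = 0.179). Dio2 differed by -0.15 ± 0.088 (adjusted p = 0.151), with 0 of 8 WSP arrays above the WSR mean. Its sign held under the other scalings, where it was called, at -2.85 under median scaling, -0.65 under cyclic loess and -1.37 score units in the authors' deposited table. Of the 7 astrocyte spots 3 were tested, and 0 were called in males against the 58.3% of all tested spots. The third, Ndrg2, had 0.26 ± 0.16 (adjusted p = 0.151), so the 3 went both ways.

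**Figure D5:**
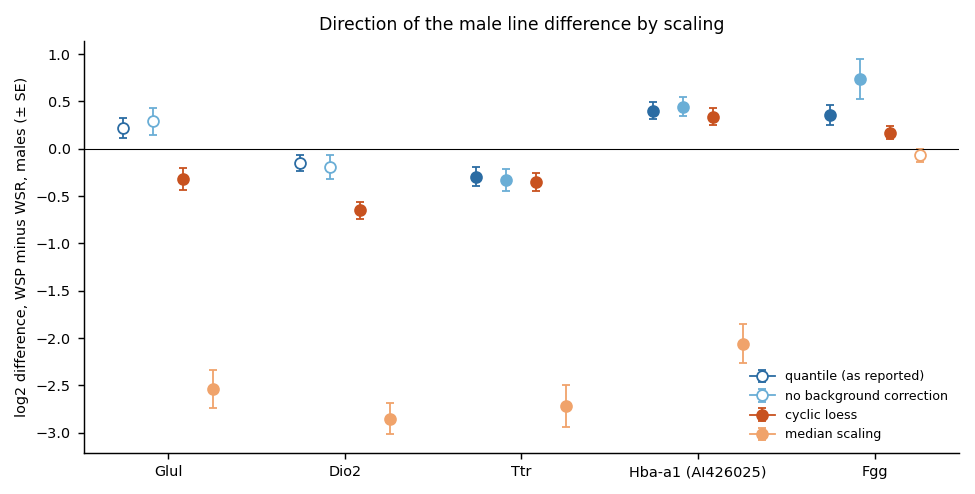
Difference between the lines in males (WSP minus WSR, log2, with SE) for the 5 tested member spots under 4 ways of processing; filled points passed an adjusted p under 0.05. Ttr and Dio2 keep a negative sign in all 4, while Glul, Hba-a1 and Fgg are positive as reported and negative under median scaling.

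Between the sexes, treatments merged, Dio2 was called in WSR, with the same sign in every setting run there. In WSR males it measured 7.92, 7.91, 7.51 and 7.62 in air and 8.17, 8.13, 7.92 and 7.49 after ethanol. The WSR females had 7.04, 7.44, 7.42 and 7.36 in air and 7.56, 7.54, 7.48 and 7.60 after ethanol. The ranges overlapped, but 8 of 8 male arrays lay above the female mean, and the difference was 0.40 ± 0.088 (SE, adjusted p = 0.000226 by limma). The ratio to background was 34.8 to 79.8 in males and 3.17 to 14.4 in females. Dio2 was also called higher in males under median scaling (1.89), cyclic loess (0.73), no background correction (0.56) and in the authors' deposited table (1.06 score units). With 60.2% of all tested spots called in this comparison, 2 of 5 members called is no result about the members.

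Hba-a1 (AI426025) was the other member called between the sexes in WSR. It was lower in males, at 8.78 to 9.18 against 8.91 to 9.53 in females. The difference was -0.22 ± 0.087 (adjusted p = 0.0299 by limma, 0 of 8 male arrays above the female mean). Under median scaling it was called with the opposite sign (0.52, adjusted p = 0.0233). The call was lost without replicate 3 (-0.20, adjusted p = 0.136), without replicate 4 (-0.19, adjusted p = 0.134), under cyclic loess (-0.16, adjusted p = 0.0945) and with no filter (-0.22, adjusted p = 0.0549). Glul had -0.24 ± 0.11 (adjusted p = 0.0506), which became 0.048 under cyclic loess. Under median scaling it was called with the opposite sign (1.04, adjusted p = 2.41e-05). With the reported sign it was called in 5 alternatives, with adjusted p from 0.0425 to 0.047. Among them were the fit without replicate 1 (-0.29) and that without background correction (-0.33). Ttr had 0.18 ± 0.097, not called, but was called under median scaling (0.92, adjusted p = 0.00048) and with the opposite sign in the authors' deposited table (-0.80 score units, adjusted p = 7.93e-05). Fgg had -0.13 ± 0.11, not called, but was called under cyclic loess (-0.17, adjusted p = 0.0255) and in a fit to the WSR arrays alone (-0.13, adjusted p = 0.0131).

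In WSP, 0 of 5 members were called between males and females, against 18.7% of all tested spots. Dio2 had 0.22 ± 0.088 (adjusted p = 0.0869 by limma, 8 of 8 male arrays above the female mean) and Hba-a1 0.19 ± 0.087 (adjusted p = 0.126, 8 of 8). Both signs turned under median scaling and were called there, at -0.49 (adjusted p = 0.0153) and -0.84 (adjusted p = 0.00141). Dio2 was called without the Male WSR arrays in the fit (0.22, adjusted p = 0.0459), and Hba-a1 without replicate 2 (0.27, adjusted p = 0.0355). Array brightness, given above, also moved with line in males and with sex within each line, and its part in these differences was not tested. With each group's mean taken away, the count of bright spots on an array had Pearson correlations of 0.16 (Glul), 0.28 (Dio2), 0.18 (Ttr), 0.15 (Hba-a1) and 0.27 (Fgg) with the normalized members over the 32 arrays, a description with no test.

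The 4 breeding lines were then compared within each direction of selection, in a fit with one mean per breeding line, sex and treatment. For WSP-2 minus WSP-1, 0 of 5 members were called against 0% of all tested spots. The ethanol mice of WSP-2 had the higher dose, so breeding line and dose cannot be fully told apart in this comparison. Fgg ran from 5.81 to 6.46 (median 6.07) in WSP-1 and from 5.87 to 7.08 (median 6.24) in WSP-2. Its fitted difference was 0.29 ± 0.097 (SE), with 5 of 8 WSP-2 arrays above the WSP-1 mean. Leaving out 1 replicate gave from 0.15 without replicate 4 to 0.43 without replicate 3, and median scaling gave 0.19. Fgg met the filter only with its WSP-2 arrays counted, so no p-value is given for this difference. The 3 WSP arrays with Fgg at 2 times background or more were all WSP-2 females, 2 of them in air. The highest normalized Fgg values in WSP-2, 7.08 and 6.89, were on the replicate 4 ethanol arrays of Male WSP and Female WSP. The other members had 0.041 ± 0.097 (Glul), 0.085 ± 0.073 (Dio2), 0.011 ± 0.088 (Ttr) and -0.086 ± 0.088 (Hba-a1).

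For WSR-2 minus WSR-1, 0 of 5 members were called against 0.048% of all tested spots. An unadjusted p under 0.05 was found for 1 member, Dio2, against 262 of the 2084 tested spots. Dio2 ran from 7.04 to 8.17 (median 7.74) in WSR-1 and from 7.36 to 7.92 (median 7.50) in WSR-2. The difference of -0.17 ± 0.073 (adjusted p = 0.351 by limma, 1 of 8 WSR-2 arrays above the WSR-1 mean) turned to 0.095 under median scaling. Among the Male WSR arrays listed above, the first 2 of each treatment came from WSR-1, and they lay above the 2 from WSR-2. Among the Female WSR arrays the breeding lines overlapped in air and after ethanol. Ttr had 0.16 ± 0.088, Hba-a1 0.11 ± 0.088, Fgg 0.044 ± 0.097 and Glul 0.025 ± 0.097.

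The members did not move as 1 block across arrays. With each group's mean taken away, Pearson correlations between pairs of tested members over the 32 arrays lay between -0.20 (Glul with Hba-a1) and 0.20 (Ttr with Hba-a1). These are descriptions over arrays that share a normalization. Glul and Dio2, both astrocyte genes, had -0.037. Ttr and Hba-a1, the choroid plexus and red cell markers, thus had the highest value of the 10 pairs, and it was weak.

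The titled probes most like each member were found by the same measure among 452 titled probes. For Glul they were cyclin-dependent kinase 2 (0.56), sepiapterin reductase (0.51) and cellular retinol binding protein 1 (0.49). For Dio2 they were aplysia ras-related homolog 9 (RhoC, 0.79), histone 4 protein (0.67) and the sodium pump's beta 1 subunit (0.61). For Ttr they were carbonyl reductase (0.63), mitogen activated protein kinase 13 (0.60) and heat shock protein 40 (0.56). None of these 9 probes belonged to the marker lists. For Hba-a1 they were inversin (0.69), the C184L-22 mRNA (0.68) and the PL6 protein mRNA (0.52), and for Fgg TGFB inducible early growth response (0.73), capping protein alpha 1 (0.67) and cytokine receptor related protein 4 (0.58). The median over all tested probes was between -0.0091 and 0.0082 for each member.

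Ratios of 2 bright members on the same array do not depend on scaling the array as a whole, and 24 of them (6 pairs in 4 groups) were compared between ethanol and air by two-sided exact permutation tests, a setting added after the data were seen. The smallest p that 4 arrays against 4 allow is 0.0286. It was reached by Ttr over Hba-a1 in Female WSR, where the log2 ratio of intensities, with background not subtracted, averaged -0.54 ± 0.19 (SD, n = 4) in air and -0.046 ± 0.23 in ethanol mice. The groups did not overlap, and the difference of 0.50 had an exact permutation p of 0.0286 and an adjusted p of 0.343 over the 24 ratios. Array brightness did not overlap between these groups either, and its part was not tested. In Male WSP the same ratio differed by -0.33 (exact permutation p = 0.0571, adjusted 0.343), in Male WSR by 0.30 (exact permutation p = 0.171) and in Female WSP by 0.28 (exact permutation p = 0.343). The other 23 ratios had overlapping groups. An adjusted p under 0.05 would have needed at least 14 of the 24 ratios to reach the smallest p, so the adjustment could hardly have passed any.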

How the data were processed

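RNA of prefrontal cortex was labelled with 33P by oligo-dT reverse transcription and hybridised to 32 single-channel arrays, per the labels' protocols. The deposited array files give 1 intensity per spot and 1 background intensity per array (6.96 to 30.3), with no normalization. A second deposited table holds scores, which by recomputation are 8 plus 2 times the log2 intensity standardised within each array (largest deviation 1.06e-06). Its scale and direction are thereby known, it is centred per array, and its column medians lay between 7.29 and 8.55. Which scanner was used is not given here. The value table had 0 columns without a sample.

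The deposited intensities were corrected by normexp (offset 50, which shrinks differences of dim spots), taken to log2 and quantile normalized over the 4696 gene spots. Kept were the 2084 spots (453 titled) that reached 2 times background on 4 or more arrays. limma 3.58.1 in R 4.3.3 fitted 1 mean per group (24 residual degrees of freedom) or per breeding line, sex and treatment (16), with an intensity trend. There were 15 comparisons and 16 alternative settings, given in the closing section, and the script was tested on simulated data. Figures used matplotlib 3.10.9.

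Every member spot is named in every comparison; of the marker lists (astrocytes, glutamate cycle, thyroid hormone axis, choroid plexus, red blood cells, plasma, vessels, neurons, microglia), called genes or counts are named, and other spots are named after their values were seen; some genes of these lists are not reported here. Members, lists and tests were chosen with earlier results of these data known.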

Additional observations from a re-analysis of the deposited data

Results flagged for a closer look

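Of 48 checks of a member spot in a group of 4 arrays, 4 found 1 array apart from the other 3 by Dixon's criterion at 95%, where chance alone gives about 1 in 20. Dio2 in Female WSP Air was 7.65 in replicate 4 against 7.47 in each of the other 3. Hba-a1 (AI426025) in Female WSR Air was 9.53 in replicate 4 against 9.23 to 9.26. Hba-a1 (AI448719) in Male WSP EtOH was 6.50 in replicate 2 against 5.73 to 5.77, although its ratio to background there was 1.46. Fgg in Female WSP EtOH was 6.89 in replicate 4 against 5.89 to 6.05, and this array's ratio to background was 3.80.

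The line difference (WSP minus WSR) of Hba-a1 (AI426025) differed between the sexes by 0.42 (male minus female, adjusted p = 0.00543 by limma), a test of the difference itself. It turned to -1.36 under median scaling.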

How the results depend on the processing

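Counts of member spots called kept within 1.5 times of the reported count in most settings. The percentages here are the shares of all tested spots called in the same setting. Median scaling gave 1 call for ethanol minus air in Female WSP (Hba-a1, 7.1%). With Fgg set aside because of the filter, it called Dio2 for WSP-2 minus WSP-1 (11.7%). It gave 4 each for the line difference of the ethanol response (27.4%), WSP minus WSR in females (36.4%) and the sex difference of the line difference (77.4%). Male minus female also gave 4 in WSP (41.3%) and 4 in WSR (70.2%). Cyclic loess gave 5 for WSP minus WSR in males (64.1%), 5 over both sexes (57%) and 2 for the sex difference of the line difference (52%). The authors' table gave 3 for that difference (50.4%) and 2 for male minus female in WSP (36.3%). A filter of 2 times background on at least 16 arrays, which leaves Fgg untested, gave 1 for WSP minus WSR over both sexes (51.6%). Without the Male WSR arrays male minus female in WSP gave 1 (15.8%), and with no filter male minus female in WSR gave 1 (28.2%). Leaving out 1 replicate of every group in turn gave 0 to 1 calls for the sex difference of the line difference (44.1% to 51.2%). It gave 0 to 1 for male minus female in WSP (14% to 18.6%) and 1 to 3 for male minus female in WSR (49.8% to 56%). For WSP-2 minus WSP-1, with Fgg again set aside, it called no member (0.048% to 0.48%). With the replicate number as a replicate block the counts were 3 for WSP minus WSR in males (58.5%) and 3 over both sexes (55.2%). They were 1 for the sex difference of the line difference (53.7%), 2 for male minus female in WSR (60.8%) and 0 in the other comparisons, as reported. Further, 5 of 16 same-numbered ethanol and air pairs correlated above 0.1 (-0.10 to 0.41 in all), and numbers 1 and 2 are the first breeding line and 3 and 4 the second in every group, so a shared number was not taken to pair arrays. The breeding line number as a replicate block, added after the data were seen, changed no call.

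Signs of the 75 member differences turned in 28 under median scaling, 18 in the authors' table, 10 under cyclic loess, 1 without background correction, and 6 without Female WSP EtOH array 1 (a setting added after the data were seen). The filters, the intensity trend, the blocks and the choice of arrays in the fit leave the difference itself as it is, so they bear on calls alone. The causes were not tested. Under median scaling the log2 values were as follows. In Female WSP ethanol minus air was -0.63 for Glul and -0.10 for Fgg, and in Female WSR ethanol minus air was 0.31 for Hba-a1. In Male WSP ethanol minus air was -0.14 for Hba-a1, and in Male WSR ethanol minus air was 0.22 for Hba-a1. Ethanol minus air over all groups was -0.026 for Fgg, and the line difference of the ethanol response was -0.88 for Hba-a1. The sex difference of the ethanol response was 0.074 for Glul, 0.094 for Dio2 and 0.079 for Ttr. WSP minus WSR in females was -0.58 for Glul and -0.47 for Dio2, and WSP minus WSR in males was -2.54 for Glul, -2.06 for Hba-a1 and -0.071 for Fgg. WSP minus WSR over both sexes was -1.56 for Glul, -1.38 for Hba-a1 and -0.0026 for Fgg. The sex difference of the line difference was -1.96 for Glul, -1.36 for Hba-a1 and -0.14 for Fgg. Male minus female in WSP was -0.49 for Dio2, -0.84 for Hba-a1 and -0.16 for Fgg. Male minus female in WSR was 1.04 for Glul and 0.52 for Hba-a1, and WSP-2 minus WSP-1 was 0.32 for Hba-a1. WSR-2 minus WSR-1 was 0.095 for Dio2. Under cyclic loess fewer turned. In Female WSP ethanol minus air was -0.044 for Glul and -0.059 for Fgg, and ethanol minus air over all groups was -0.033 for Fgg. WSP minus WSR in females was -0.067 for Glul and -0.017 for Dio2, and WSP minus WSR in males was -0.32 for Glul. WSP minus WSR over both sexes was -0.19 for Glul, and the sex difference of the line difference was -0.26 for Glul. Male minus female in WSP was -0.13 for Fgg, and male minus female in WSR was 0.048 for Glul. In the authors' table the differences are in score units. In Female WSP ethanol minus air was 0.027 for Ttr and -0.23 for Fgg, and ethanol minus air over all groups was -0.013 for Dio2 and -0.018 for Ttr. WSP minus WSR in females was -0.18 for Dio2, 0.0036 for Ttr and 0.027 for Hba-a1. WSP minus WSR in males was -0.35 for Glul and 0.75 for Ttr, and WSP minus WSR over both sexes was -0.14 for Glul and 0.37 for Ttr. The sex difference of the line difference was -0.42 for Glul and 0.74 for Ttr, and male minus female in WSP was -0.14 for Dio2 and -0.36 for Fgg. Male minus female in WSR was -0.80 for Ttr, and WSP-2 minus WSP-1 was -0.12 for Ttr. WSR-2 minus WSR-1 was -0.061 for Hba-a1. Leaving out Female WSP EtOH array 1 turned small values. In Female WSP ethanol minus air was -0.025 for Glul and 0.054 for Ttr, and the sex difference of the ethanol response was 0.016 for Glul. WSP minus WSR in females was 0.012 for Ttr and 0.034 for Hba-a1, and WSP-2 minus WSP-1 was -0.035 for Ttr. Without background correction, in Female WSP ethanol minus air was -0.049 for Fgg. Leaving out 1 replicate in turn gave these ranges where a sign turned. In Female WSP ethanol minus air ran from -0.017 to 0.24 for Glul, from -0.14 to 0.055 for Ttr and from -0.21 to 0.13 for Fgg. In Male WSP ethanol minus air ran from -0.0074 to 0.070 for Hba-a1. The line difference of the ethanol response ran from -0.0019 to 0.085 for Hba-a1. The sex difference of the ethanol response ran from -0.27 to 0.14 for Glul, from -0.072 to 0.0030 for Dio2 and from -0.22 to 0.013 for Ttr. WSP minus WSR in females ran from -0.030 to 0.14 for Glul, from -0.089 to 0.046 for Ttr and from -0.12 to 0.058 for Hba-a1. Male minus female in WSP ran from -0.16 to 0.014 for Glul. WSP-2 minus WSP-1 ran from -0.15 to 0.17 for Ttr and from -0.21 to 0.034 for Hba-a1. WSR-2 minus WSR-1 ran from -0.12 to 0.17 for Glul. The dim Fgg spot and the Hba-a1 spot of clone AI448719 set the limit of what signal over background could show.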

Other observations

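The vessel list held 1 tested spot, which was called between the lines, where 54.4% of all tested spots were called over both sexes. Endoglin (Eng), a receptor of endothelial cells, was higher in WSP over both sexes by 0.30 ± 0.079 (SE, adjusted p = 0.002 by limma), but had -0.035 under median scaling. Its ethanol response differed between the lines by 0.74 ± 0.16 (adjusted p = 0.0404), where 0.24% of all tested spots were called. It had 0.27 under median scaling (adjusted p = 0.0342, with 27.4% of all tested spots called) and 0.34 under cyclic loess (adjusted p = 0.194). The higher dose was given in WSP-2 only, so line and dose cannot be fully told apart here either. The spot was at 2 times background on 11 arrays, none of them Male WSP. Its ratio to background was 1.06 to 1.58 in Male WSP and 1.40 to 3.50 in Male WSR. Of the 4 neuronal spots, Grin1 passed the filter only through the Male WSR arrays, so its line difference is not given. The other 3 were not called over both sexes (adjusted p of 0.302 for Syn1, 0.551 for Dlg4 and 0.113 for Sst). Between the lines in females Sst was called at 0.25, against 12.1% of all tested spots. The sex difference of the line difference was called for Syn1 (0.29), against 53.1%, and became -0.044 under median scaling. Sst passed the filter only through the Male WSR and Female WSP arrays, so this difference is not given for it. Male minus female in WSR was called for Syn1 (-0.27) and Sst (0.21), against 60.2%. Under median scaling these values became -0.050 and 0.73. In the thyroid hormone list the tested spots were Dio2 and Ttr, both members, and in the glutamate and glutamine list the tested spot was Glul.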
